A study of Chlorocebus aethiops with 36 samples.

Results

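The genes described here carry or receive the insulin-like growth factor signal of the liver: the ligands IGF1 and IGF2, the binding proteins IGFBP1, IGFBP2, IGFBP3 and IGFBP4, the acid-labile subunit IGFALS, the receptors GHR and INSR, and the activin subunit gene INHBB. Every probe set whose annotation gives a single symbol, and that symbol one of these 10, was taken, which gave 9 of the 19775 genes so annotated and 19 of the 54675 probe sets of the array. IGF2 had none, because its 3 probe sets also carry the symbol of a read-through gene. Of the 19 probe sets, 16 from 8 genes had a mean of at least 4.46 in log2 units, the median over the whole array, and were tested. The other 3, both probe sets of IGFBP1 and 1 of IGF1, were below it. The probe sets were selected on their annotation, while the list of genes was chosen by someone who knew the changes over time measured on these arrays. The calls below therefore describe sizes against the spread within groups, with the repeated sampling of each animal taken into account. They are no independent evidence that these genes stand out.

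The samples are liver biopsies of 12 male African green monkeys, hybridised to a human array of the type HG-U133 Plus 2.0. In the anti-miR-33 arm, 6 monkeys received under the skin 5 mg/kg of an oligonucleotide that binds and blocks the microRNA miR-33. In the control arm, 6 monkeys received a control anti-miR at the same dose. Each animal was sampled untreated on chow at week -5, treated on chow at week 4, and treated at week 12, when it had eaten a diet high in carbohydrate and moderate in cholesterol for 8 weeks. The arm of a week -5 biopsy was read from the animal's later labels. No arm stayed on chow to week 12, so diet, duration of treatment and time cannot be told apart in the changes to week 12. Nor did any arm go without injections, so handling and time cannot be told apart in the changes that both arms share. Animals are numbered within each arm. The week 4 array of control animal 1 carries the label of the later diet, unlike the other week 4 arrays. The array identifiers number the week 4 arrays in a run of their own, apart from the week -5 and week 12 arrays, so that run and week 4 cannot be told apart.

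Growth hormone binds its receptor GHR on hepatocytes and, through JAK2 and STAT5, induces IGF1 and IGFALS. Circulating IGF1 travels mostly in a complex of IGFBP3 or IGFBP5 with the acid-labile subunit, while IGFBP1 and IGFBP2 follow nutrition, since insulin represses IGFBP1 and fasting raises IGFBP2 in liver. In rat liver IGFBP3 is made mainly by non-parenchymal cells, and IGF1 and the acid-labile subunit by hepatocytes.

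Hepatocyte markers stood high on every array: the mean of the 9 measured markers ran from 12.20 to 12.85, and its lowest value was the week 12 array of control animal 5. A measure of how far the RNA signal leans to the 3′ end shifted with time. The difference between the 3′ and 5′ control probe sets of GAPDH and ACTB, averaged over these 2 genes, was 2.57 ± 0.43 at week -5, 1.94 ± 0.41 at week 4 and 1.83 ± 0.16 at week 12 (log2, SD, n = 12 animals). By arm it averaged 2.70 at week -5, 1.96 at week 4 and 1.81 at week 12 with anti-miR-33, against 2.44, 1.93 and 1.85 with control anti-miR. The 2 genes averaged 2.57 each at week -5 and 1.83 each at week 12. At week 4 they parted, with 2.24 for GAPDH and 1.65 for ACTB, so covariates from either gene alone differ there. Changes over time were fitted without the averaged difference and again with it as a covariate. For the IGF axis genes the second value is given where a called change lost its call. Since the difference moved with time, covariate and time are partly confounded. Within each time, where that does not apply, the relation of each probe set to the difference was also tested over the 12 animals.

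With both arms pooled, 6 of the 8 tested genes had at least 1 probe set called between week -5 and week 12, by limma at an adjusted p under 0.05. IGF1 entered this count through 1 of its 4 tested probe sets and INSR through 1 of 5. The count has no share of all genes beside it, and with the covariate only IGFBP2 and IGFBP3 kept a call. At week 4 against week -5, 9 of 16 probe sets were called, beside 35.4% of all 27304 tested probe sets. Of these, 5 were higher, beside 16.5% of all, and 4 lower, beside 18.9%. At week 12 against week -5, 7 of 16 were called, beside 24.1% of all, with 2 higher, beside 10.2%, and 5 lower, beside 13.9%. At week 12 against week 4, 4 of 16 were called, beside 25.5% of all, with 1 higher, beside 12.3%, and 3 lower, beside 13.2%. With the covariate the counts in the same comparisons were 2, 2 and 4 of 16, beside 23.9%, 4.34% and 25.5% of all probe sets. The median difference of the 16 was 0.0175, -0.0046 and -0.0604, beside -0.00083, -0.0042 and 0.0017 over all tested probe sets. The plot of the genes in each animal shows these courses.

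**Figure D1:**
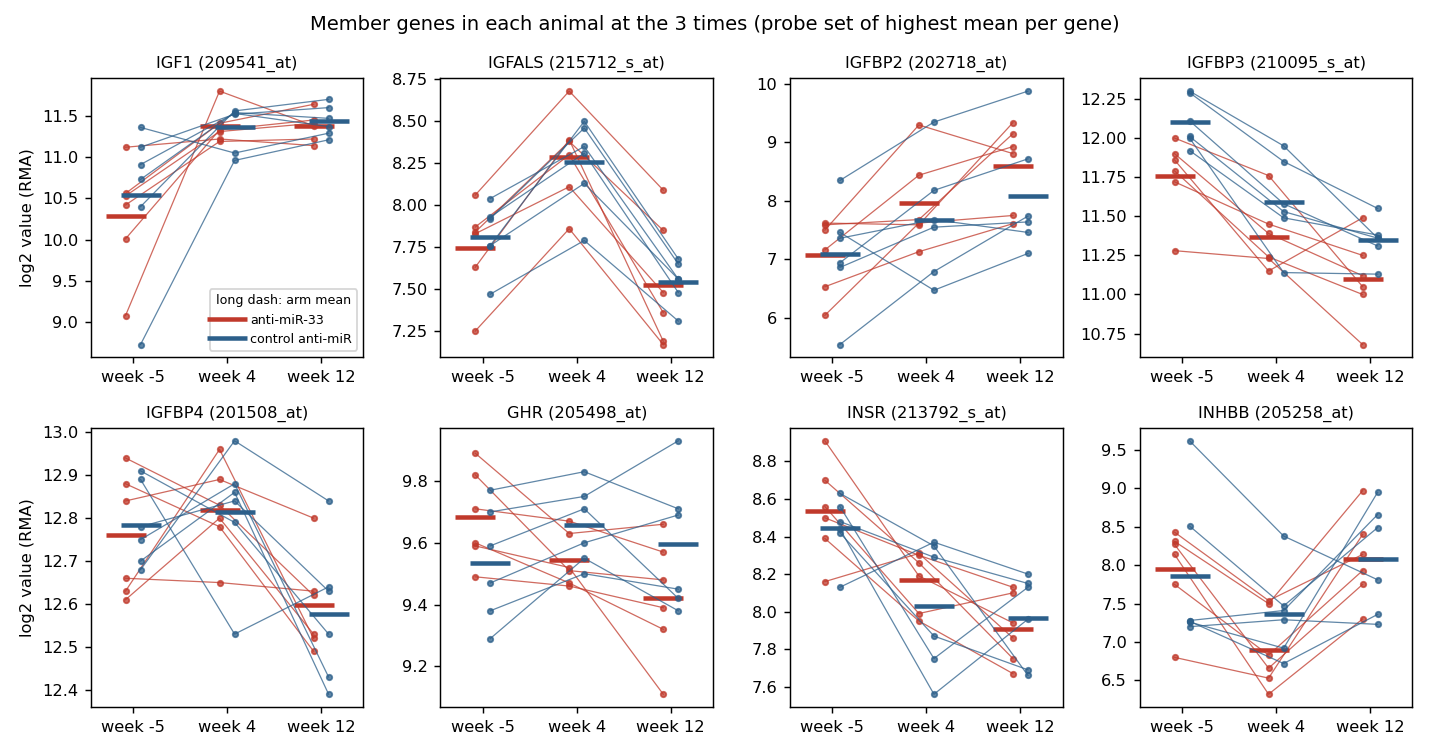
Log2 values (vertical axis) of 8 genes at weeks -5, 4 and 12 (horizontal axis) in each of the 12 animals, with 1 line per animal, anti-miR-33 in red and control in blue, and a long dash for each arm's mean. IGF1 lies lower and wider at week -5 (8.73 to 11.36) than later, IGFALS peaks at week 4 in all 12 animals, and IGFBP3 is lower at week 4 and week 12 than at week -5 in all 12.

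IGF1, the endocrine growth factor of the liver, rose after week -5 on its brightest probe set. In the anti-miR-33 arm, 209541_at had a lowest, median and highest log2 value of 9.08, 10.48 and 11.12 at week -5, of 11.19, 11.32 and 11.80 at week 4 and of 11.14, 11.40 and 11.64 at week 12. With control anti-miR these were 8.73, 10.82 and 11.36 at week -5, 10.96, 11.53 and 11.56 at week 4 and 11.21, 11.42 and 11.70 at week 12. Values at week -5 were lower and spread wider than later ones, with SDs of 0.69 in the anti-miR-33 arm and 0.95 in the control arm, and in the control arm the highest of them reached into the later range, whereas in the anti-miR-33 arm all lay below it. Against week -5, the level was 1.94-fold higher at week 4 (log2 difference 0.95 ± 0.18, SE, limma adjusted p = 8.77e-05) and 1.99-fold higher at week 12 (0.99 ± 0.18, adjusted p = 8.04e-05), in 11 of 12 animals each time. Between week 12 and week 4 the difference was 0.04 ± 0.18.

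With the 3′ minus 5′ covariate, the IGF1 differences from week -5 were 0.41 ± 0.19 at week 4 (adjusted p = 0.116) and 0.35 ± 0.20 at week 12 (adjusted p = 0.391), and neither passed. With the GAPDH difference alone as covariate, the week 4 difference did pass (0.64 ± 0.15, adjusted p = 0.00157). Within week -5, where neither treatment nor diet differed, animals with a larger 3′ minus 5′ difference had less IGF1 signal, with a Pearson r of -0.84 over the 12 animals (permutation p = 0.00043, adjusted 0.0184) and a Spearman rho of -0.85 (permutation p = 0.00089, adjusted 0.0214). Without the 2 animals farthest from the median difference r was -0.81. At weeks 4 and 12 r was -0.33 and -0.39 and did not pass (permutation, adjusted p = 0.59 and 0.475). These adjustments cover 48 relations, 16 probe sets at 3 times.

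The other IGF1 probe sets moved less. At week 4 against week -5, 211577_s_at stood 0.39 ± 0.13 higher (adjusted p = 0.0224) and 209542_x_at 0.33 ± 0.13 higher (adjusted p = 0.0395), in 12 of 12 animals each, while 209540_at differed by 0.21 ± 0.09 (adjusted p = 0.0802). That last difference passed with the animal as a fixed block (adjusted p = 0.0416) and after quantile normalization (0.28, adjusted p = 0.0147). At week 12 against week -5 they differed by 0.21, 0.19 and 0.18, and by -0.26, -0.26 and 0.019 with the covariate, and none passed. With the covariate both calls at week 4 were lost and the values turned, to -0.014 for 211577_s_at and -0.048 for 209542_x_at. With the GAPDH difference alone they stayed positive and did not pass, at 0.18 (limma adjusted p = 0.271) and 0.14 (adjusted p = 0.387). Both also followed the 3′ minus 5′ difference among the 12 animals at week 4, with r of -0.81 and -0.83 (permutation, adjusted p = 0.0184 each) and Spearman rho of -0.83 (adjusted p = 0.0218) and -0.90 (adjusted p = 0.0106). Without the 2 farthest animals r was -0.79 and -0.83. At weeks -5 and 12 neither passed, with r of -0.56 and -0.40 for 211577_s_at and of -0.54 and -0.43 for 209542_x_at (permutation, adjusted p of 0.345 to 0.475). Across all 36 arrays, with animals and times in common, the 3 probe sets correlated with 209541_at at r of 0.63, 0.63 and 0.77.

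These 2 calls at week 4 were thin. That for 209542_x_at was lost without anti-miR-33 animal 1, 2, 3, 4 or 5 or control animal 1, 2 or 6, with an adjusted p of up to 0.0915, and that for 211577_s_at without control animal 1 (adjusted p = 0.0529). Without the animal as a block both were lost (adjusted p of 0.0844 for 209542_x_at and 0.0553 for 211577_s_at). The fifth IGF1 probe set, 241072_s_at, lay below the filter, at 3.19 to 3.60 over all arrays. The plot against the control probes shows how the brightest IGF1 probe set lay along that difference.

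**Figure D2:**
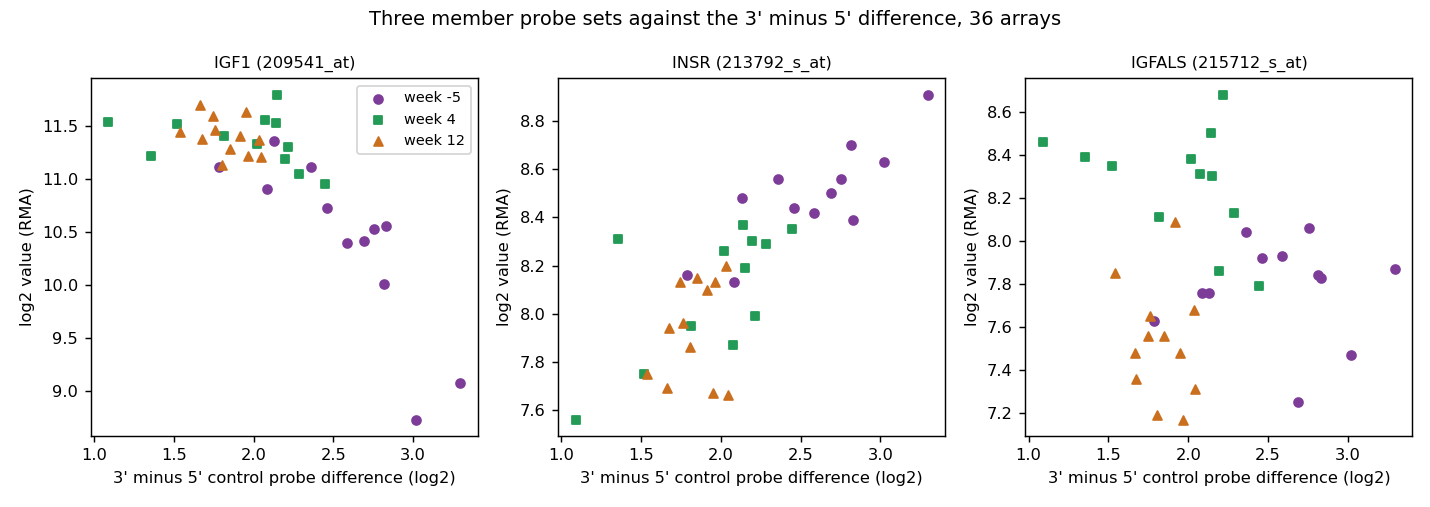
Log2 values of 3 probe sets (vertical axes) against the mean 3′ minus 5′ difference of GAPDH and ACTB (horizontal axis, log2), 1 point per array, with circles for week -5, squares for week 4 and triangles for week 12. IGF1 209541_at falls and INSR 213792_s_at climbs as the difference grows (r of -0.80 and 0.81 across 36 arrays with animals and times in common), while IGFALS shows little relation (r of -0.11) and stands highest at week 4.

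IGFALS encodes the acid-labile subunit, which holds IGF1 and IGFBP3 in the long-lived complex of plasma. Its probe set 215712_s_at rose to week 4 and fell to week 12. Under anti-miR-33 its lowest, median and highest values were 7.25, 7.84 and 8.06 at week -5, 7.86, 8.34 and 8.68 at week 4 and 7.17, 7.42 and 8.09 at week 12. Control animals had 7.47, 7.84 and 8.04 at week -5, 7.79, 8.33 and 8.50 at week 4 and 7.31, 7.56 and 7.68 at week 12. At week 12 the range lay wholly below that of week 4 in the control arm, while the 2 ranges overlapped in the anti-miR-33 arm.

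The level of IGFALS was 1.41-fold higher at week 4 than at week -5 (0.49 ± 0.09, adjusted p = 4.99e-05), in 12 of 12 animals. It was 1.67-fold lower at week 12 than at week 4 (log2 difference -0.74 ± 0.09, adjusted p = 3.85e-07), again in 12 of 12. Both passed with the covariate, at 0.43 (adjusted p = 0.00694) and -0.75 (adjusted p = 3.55e-07). So at week 12 IGFALS stood 0.74 below its week 4 value, where the brightest IGF1 probe set stood 0.04 above its own. The other tested IGF1 probe sets had lower means at week 12 than at week 4. These were 10.175 against 10.349 for 211577_s_at, 10.567 against 10.712 for 209542_x_at and 10.773 against 10.803 for 209540_at. None of these falls was called without a covariate. With the GAPDH difference alone, limma called those of 211577_s_at (-0.42, adjusted p = 0.0212) and 209542_x_at (-0.38, adjusted p = 0.0319). At week 12 against week -5 the difference of IGFALS was -0.25 ± 0.09 (adjusted p = 0.0373), lower in 10 of 12. That last call did not hold with the covariate (-0.32, adjusted p = 0.143), without the block (adjusted p = 0.0856) or without the week 12 array of control animal 5 (adjusted p = 0.0607). It was lost too without anti-miR-33 animal 1, 4 or 5 or control animal 1, 2, 3 or 4, with an adjusted p of up to 0.104.

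IGFBP2, a binding protein that liver makes in fasting and in low insulin states, rose. Under anti-miR-33, 202718_at had a lowest, median and highest value of 6.04, 7.33 and 7.62 at week -5, of 7.13, 7.65 and 9.30 at week 4 and of 7.61, 8.87 and 9.34 at week 12. Control animals had 5.54, 7.15 and 8.35 at week -5, 6.47, 7.62 and 9.35 at week 4 and 7.10, 7.69 and 9.88 at week 12. Between times the ranges overlapped widely in the control arm, and in the anti-miR-33 arm the lowest week 12 value, 7.61, stood just under the highest of week -5.

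Pooled, IGFBP2 was 2.40-fold higher at week 12 than at week -5 (1.26 ± 0.28, adjusted p = 0.000892), in 11 of 12 animals, and with the covariate the difference was 1.55 (adjusted p = 0.0175). By arm it was 1.52 ± 0.40 with anti-miR-33 (adjusted p = 0.0083, beside 14.1% of all probe sets called) and 1.00 ± 0.40 with control anti-miR (adjusted p = 0.119, beside 7.55%). With the covariate the call in the anti-miR-33 arm was lost (1.86, adjusted p = 0.0864), and the value in the control arm was 1.23 (adjusted p = 0.16). The difference between the changes of the arms was 0.52 ± 0.56 (adjusted p = 0.999). At week 4 IGFBP2 stood 0.74 ± 0.28 above week -5 (adjusted p = 0.0392), in 10 of 12. This call was lost with the covariate (0.97, adjusted p = 0.0504), without the animal as a block (adjusted p = 0.0826) and without anti-miR-33 animal 1, 3 or 6 or control animal 1, 2, 3 or 6 (adjusted p up to 0.0888). Between week 12 and week 4 the difference was 0.53 ± 0.28 (adjusted p = 0.165), which passed with the animal as a fixed block (adjusted p = 0.0323).

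IGFBP3, the main carrier of IGF1 in plasma, fell at both later times. In the anti-miR-33 arm, 210095_s_at had a lowest, median and highest value of 11.28, 11.83 and 12.00 at week -5, of 11.15, 11.32 and 11.76 at week 4 and of 10.68, 11.09 and 11.49 at week 12. With control anti-miR they were 11.92, 12.06 and 12.30 at week -5, 11.14, 11.56 and 11.95 at week 4 and 11.13, 11.36 and 11.55 at week 12. In the control arm every week 12 value lay below every week -5 value, while in the anti-miR-33 arm 1 animal was low from the start and the ranges overlapped.

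Against week -5, IGFBP3 was 1.37-fold lower at week 4 (-0.45 ± 0.08, adjusted p = 4.03e-05) and 1.63-fold lower at week 12 (-0.71 ± 0.08, adjusted p = 4.86e-08), in 12 of 12 animals each time. With the covariate these values stood at -0.46 (adjusted p = 0.00182) and -0.71 (adjusted p = 0.000163). From week 4 it fell further to week 12 (-0.26 ± 0.08, adjusted p = 0.0169), in 11 of 12 animals, a call lost without anti-miR-33 animal 2 (adjusted p = 0.0567). The second probe set, 212143_s_at, differed from week -5 by -0.27 ± 0.08 at week 4 (adjusted p = 0.012, and 0.0523 without control animal 5) and by -0.40 ± 0.08 at week 12 (adjusted p = 0.000364). With the covariate it differed by -0.16 (adjusted p = 0.274) and -0.29 (adjusted p = 0.163). The pair of probe sets correlated at r of 0.61 across the 36 arrays.

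Against week -5, markers of some non-parenchymal cells, mainly endothelium, were lower at both later times, as IGFBP3 was. From week 4 to week 12, where IGFBP3 fell further, the mean of the endothelial markers went from 6.26 to 6.18. That of the stellate and fibroblast markers went from 8.11 to 8.01, and that of the macrophage markers from 6.33 to 6.35. Marker counts are of calls by limma at an adjusted p under 0.05, with both arms pooled and without the covariate. Of all tested probe sets, 18.9% were called lower and 16.5% higher at week 4, and 13.9% and 10.2% at week 12. Nothing is read from a count near those shares. Of 11 measured endothelial markers, 8 were called lower and 1 higher at week 4 than at week -5, and 8 lower and 0 higher at week 12. PECAM1, a junction protein of endothelium, differed by -0.74 at week 4 and -0.71 at week 12, and STAB2, a scavenger receptor of liver sinusoids, by -0.76 and -0.86. On the same list CLEC4M was called higher at week 4 (0.20) and differed by -0.0042 at week 12. TEK was called at neither time (-0.014 and 0.16). The mean of the list ran from 6.46 to 7.05 at week -5, from 6.05 to 6.75 at week 4 and from 5.99 to 6.44 at week 12 over both arms. Of 8 stellate and fibroblast markers, 4 were lower and 0 higher at each later time, and their mean ran from 7.97 to 9.04, from 7.88 to 8.51 and from 7.64 to 8.46. Of 8 macrophage markers, 4 were lower at week 4 and 3 at week 12, with 0 higher, and their mean ran from 6.16 to 6.83, from 6.07 to 6.57 and from 6.08 to 6.73. Other lists gave mixed counts. Of 6 lymphocyte markers, 2 were lower and 1 higher at week 4 and 1 was lower at week 12. Of 4 cholangiocyte markers, 0 were lower at either time and 1 was higher at week 4. Of 4 erythroid markers, 0 were lower and 1 higher at week 4, and 2 were lower and 0 higher at week 12. The erythroid markers lower at week 12 were HBB (-1.37) and ALAS2 (-0.615). The part of these markers in the fall of IGFBP3 was not tested, and in a whole biopsy fewer cells of a type and less RNA per cell cannot be told apart.

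IGFBP4, a binding protein that restrains IGF1 in tissue, was high and moved little. Its probe set 201508_at had medians of 12.75, 12.82 and 12.57 at weeks -5, 4 and 12 in the anti-miR-33 arm, within 12.49 to 12.96, and of 12.77, 12.85 and 12.58 in the control arm, within 12.39 to 12.98. At week 12 it was lower than at week -5 (-0.18 ± 0.05, adjusted p = 0.0102) and lower than at week 4 (-0.23 ± 0.05, adjusted p = 0.00212), in 11 of 12 animals each. With the covariate these were -0.079 (adjusted p = 0.623) and -0.21 (adjusted p = 0.0029).

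IGFBP1, the binding protein that insulin represses most directly, was dim. Its brighter probe set, 205302_at, ran from 2.93 to 4.54 at week -5, from 3.07 to 4.21 at week 4 and from 2.99 to 4.54 at week 12 over both arms. With no filter on low values, its differences from week -5 were -0.21 ± 0.16 at week 4 (adjusted p = 0.348) and -0.21 ± 0.16 at week 12 (adjusted p = 0.479). The other probe set, 237989_at, stayed between 2.85 and 3.53. A human probe that mismatches the monkey transcript reads low in every group, so a dim value sets no level for the gene. The plot of all changes puts the 16 tested probe sets side by side.

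**Figure D3:**
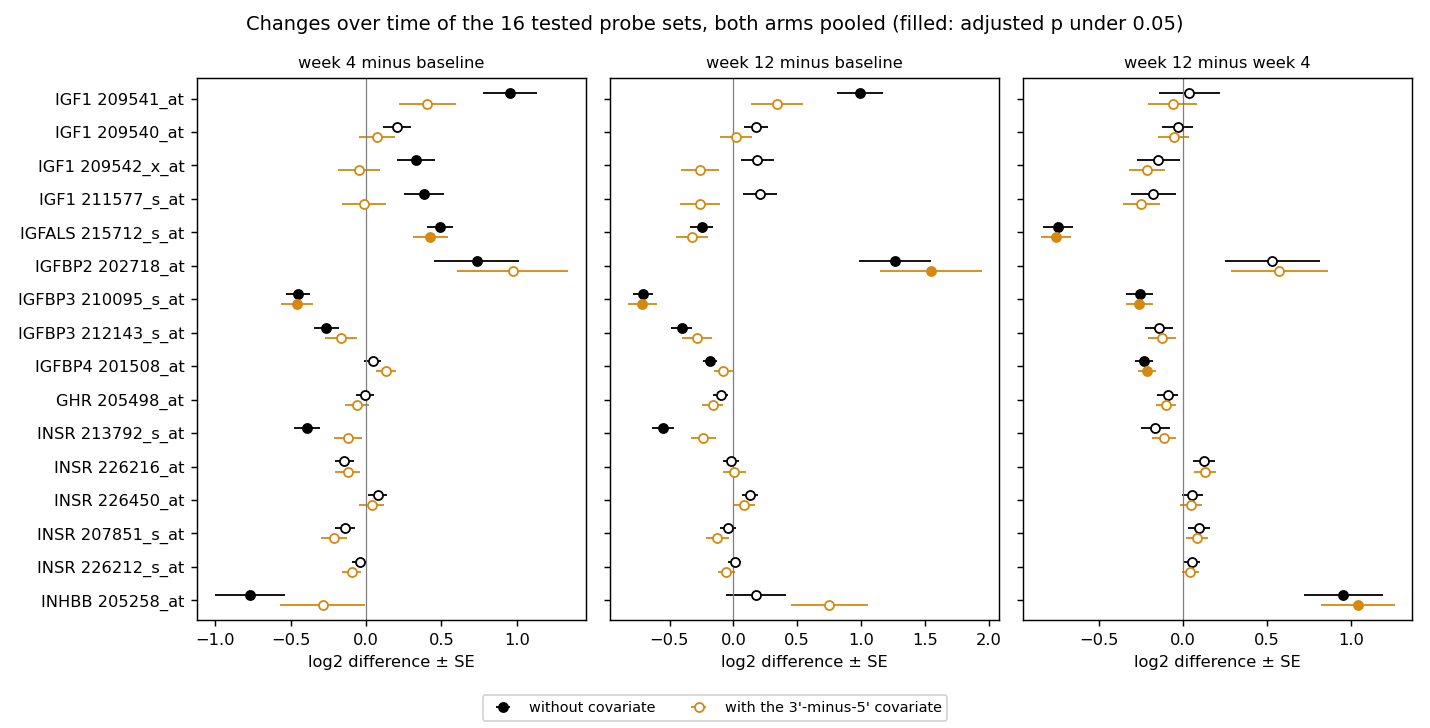
Log2 differences with their SE (horizontal axes) of the 16 tested probe sets, both arms pooled, for week 4 minus week -5 (left), week 12 minus week -5 (middle) and week 12 minus week 4 (right), without the covariate in black and with it in orange, filled where the adjusted p was under 0.05. IGFBP3 210095_s_at is filled in all 6 places, whereas IGF1 209541_at and INSR 213792_s_at lose their calls against week -5 with the covariate (adjusted p of 0.116 to 0.391).

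GHR, the growth hormone receptor, showed no pooled change that passed: its differences from week -5 were -0.0083 ± 0.060 at week 4 (adjusted p = 0.93) and -0.10 ± 0.06 at week 12 (adjusted p = 0.253). In the anti-miR-33 arm, 205498_at had a lowest, median and highest value of 9.49, 9.66 and 9.89 at week -5, 9.46, 9.52 and 9.67 at week 4 and 9.11, 9.44 and 9.66 at week 12. For control animals these were 9.29, 9.53 and 9.77 at week -5, 9.50, 9.66 and 9.83 at week 4 and 9.38, 9.57 and 9.93 at week 12. At every time the ranges of the arms overlapped.

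Within animals GHR went opposite ways in the arms. At week 4 minus week -5, all 6 anti-miR-33 animals were lower, by changes of -0.31 to -0.03 with a mean of -0.14 ± 0.12 (SD), and all 6 control animals were higher, by 0.05 to 0.26 with a mean of 0.12 ± 0.08. At week 12 minus week -5, 6 of 6 anti-miR-33 animals were lower, with a mean change of -0.26 ± 0.14, while 4 of 6 control animals were higher, with a mean of 0.06 ± 0.16. By limma the change of GHR to week 12 passed in the anti-miR-33 arm (-0.26 ± 0.09, adjusted p = 0.0348, beside 14.1% of all probe sets called) and did not in the control arm (0.06 ± 0.09, adjusted p = 0.736, beside 7.55%). The call in the anti-miR-33 arm was lost with the covariate (-0.34, adjusted p = 0.17) and with no filter on low values (adjusted p = 0.0698). The test of the difference between the arms' changes did not pass: it was -0.26 ± 0.12 to week 4 and -0.33 ± 0.12 to week 12, each with an unadjusted p under 0.05 and a limma adjusted p of 0.999. The arms stood apart beforehand too, by 0.15 ± 0.09 at week -5, against -0.11 ± 0.09 at week 4 and -0.17 ± 0.09 at week 12, and that first difference enters both changes.

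**Figure D4:**
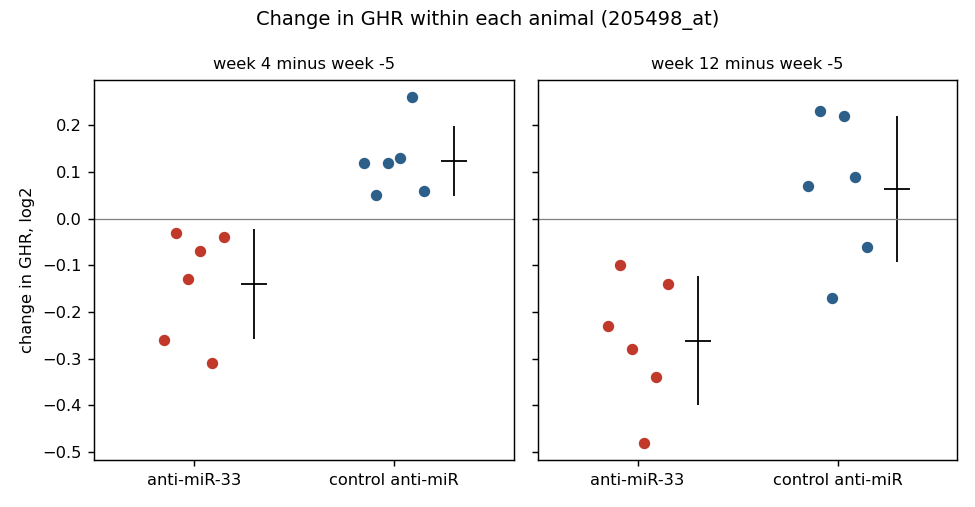
Change of GHR in log2 (vertical axis) within each animal for week 4 minus week -5 (left) and week 12 minus week -5 (right), 1 point per animal, with anti-miR-33 left of control, and the mean ± SD as a cross beside each group (n = 6). At week 4 the 6 anti-miR-33 animals lie below 0 (-0.31 to -0.03) and the 6 control animals above it (0.05 to 0.26).

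INSR, the insulin receptor, was read by 5 probe sets that did not move together. The brightest, 213792_s_at, had a lowest, median and highest value of 8.16, 8.53 and 8.91 at week -5, 7.95, 8.23 and 8.31 at week 4 and 7.67, 7.90 and 8.13 at week 12 in the anti-miR-33 arm. In the control arm these were 8.13, 8.46 and 8.63 at week -5, 7.56, 8.08 and 8.37 at week 4 and 7.66, 8.05 and 8.20 at week 12. Values at week 12 lay wholly below those of week -5 in the anti-miR-33 arm and overlapped them slightly in the control arm.

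Pooled, this probe set of INSR fell against week -5, by 0.39 ± 0.09 at week 4 (adjusted p = 0.000685, 10 of 12 animals) and by 0.55 ± 0.09 at week 12 (adjusted p = 1.35e-05, 11 of 12). With the covariate the differences were -0.12 (adjusted p = 0.359) and -0.23 (adjusted p = 0.186). With the GAPDH difference alone the week 4 value passed (-0.25, adjusted p = 0.0138). The probe set followed the 3′ minus 5′ difference among the 12 animals at week -5, with r of 0.83 (permutation, adjusted p = 0.0184) but a Spearman rho of 0.69 (adjusted p = 0.175), and r of 0.62 without the 2 farthest animals. At weeks 4 and 12 r was 0.63 and 0.24 and did not pass (permutation, adjusted p = 0.178 and 0.658).

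The other 4 probe sets of INSR differed from week -5 by -0.15 to 0.08 at week 4 and by -0.04 to 0.13 at week 12, and none was called. Of these, 226216_at at week 4 (-0.15 ± 0.06, adjusted p = 0.0704) was called without anti-miR-33 animal 2 (adjusted p = 0.0335) or control animal 5 (adjusted p = 0.0248). Across the 36 arrays their correlations with 213792_s_at were -0.37, 0.043, 0.21 and 0.26.

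INHBB encodes the beta B subunit of activin and inhibin, which hepatocytes also secrete. Its probe set 205258_at dipped at week 4 with both arms pooled. In the anti-miR-33 arm its lowest, median and highest values were 6.80, 8.21 and 8.43 at week -5, 6.32, 6.75 and 7.54 at week 4 and 7.30, 8.04 and 8.97 at week 12. With control anti-miR they were 7.20, 7.28 and 9.62 at week -5, 6.72, 7.35 and 8.38 at week 4 and 7.23, 8.15 and 8.95 at week 12. Between all times the ranges overlapped in both arms.

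INHBB was 1.71-fold lower at week 4 than at week -5 (-0.77 ± 0.23, adjusted p = 0.00924) and 1.93-fold higher at week 12 than at week 4 (0.95 ± 0.23, adjusted p = 0.00276), in 10 of 12 animals each. The first call was lost with the covariate (-0.29, adjusted p = 0.49) and the second held (1.04, adjusted p = 0.000647). By arm, week 4 differed from week -5 by -1.05 ± 0.33 with anti-miR-33 (limma adjusted p = 0.0227, beside 18.5% of all probe sets called), with 6 of 6 animals lower. With control anti-miR the difference was -0.49 ± 0.33 (adjusted p = 0.319, beside 17.4%), with 4 of 6 lower. Neither passed with the covariate (-0.48 and -0.093, adjusted p = 0.437 and 0.891). The arms' changes differed by -0.56 ± 0.47 (adjusted p = 0.999). Pooled, week 12 and week -5 differed by 0.18 ± 0.23 (adjusted p = 0.638), and by 0.75 ± 0.30 with the covariate (adjusted p = 0.163). From week 4 to week 12 the change was 1.185 ± 0.33 with anti-miR-33 (limma adjusted p = 0.0175, and 0.00602 with the covariate). With control anti-miR that change was 0.72 ± 0.33 (adjusted p = 0.179, and 0.106 with the covariate). The difference between these 2 changes did not pass (0.47 ± 0.47, adjusted p = 0.999). Among the 12 animals at week -5, INHBB had an r of 0.74 with the 3′ minus 5′ difference, which did not pass after adjustment (permutation, adjusted p = 0.0543). Its Spearman rho there was 0.68 (permutation, adjusted p = 0.175). At weeks 4 and 12 r was 0.20 and -0.19 and did not pass (permutation, adjusted p = 0.683 each).

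Between the arms at the same time, limma called 0 of the 16 probe sets at any of the 3 times, beside 0%, 0% and 0.00366% of all probe sets at weeks -5, 4 and 12, while 1, 0 and 1 had an unadjusted p under 0.05. Both of those were IGFBP3 210095_s_at. It differed between the anti-miR-33 and control arms by -0.35 ± 0.12 before treatment, by -0.22 ± 0.12 at week 4 and by -0.25 ± 0.12 at week 12 (adjusted p of 0.999, 0.968 and 0.999). The change of IGFBP3 from week -5 to week 12 differed between the arms by 0.10 ± 0.16.

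No probe set of the 16 passed in limma for a difference between the arms in a change over time, beside 0% of all, and the 2 unadjusted p under 0.05 there were those of GHR. IGF1 209541_at changed to week 4 in both arms, by 1.09 ± 0.25 with anti-miR-33 (beside 18.5% of all probe sets called) and by 0.82 ± 0.25 with control anti-miR (beside 17.4%). With the covariate both IGF1 calls were lost, at 0.44 with anti-miR-33 (adjusted p = 0.262) and 0.37 with control anti-miR (adjusted p = 0.289). IGFALS changed to week 4 by 0.54 ± 0.13 with anti-miR-33 and by 0.44 ± 0.13 with control anti-miR. With the covariate the IGFALS call held with anti-miR-33 (0.46, adjusted p = 0.0457, but 0.118 with ACTB alone) and was lost with control anti-miR (0.39, adjusted p = 0.0547). The interval of the difference between the arms in this change of IGFALS, at ± 2 SE, ran from -0.26 to 0.45, and that for the arms' changes of IGFBP2 to week 12 from -0.61 to 1.65. These data do not exclude differences between arms within these bounds.

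Other genes of the pathway were read from 5 lists, with the brightest probe set of each gene, against week -5 and with both arms pooled. Their counts stand beside 35.4% of all probe sets called at week 4 (16.5% higher, 18.9% lower) and 24.1% at week 12 (10.2% higher, 13.9% lower), or 23.9% and 4.34% with the covariate. Several lists lie near those shares, and nothing is read from such a count. Among 15 genes of growth hormone receptor signalling, 6 rose and 3 fell at week 4, and 4 rose and 1 fell at week 12, while the covariate left 4 and 0 calls, SH2B1 and ONECUT1 at week 4 among them. SH2B1, an adaptor of JAK2, rose by 0.33 ± 0.04 at week 4 (adjusted p = 4.16e-07). ONECUT1, a hepatocyte transcription factor that growth hormone induces in rat liver, rose by 0.77 ± 0.12 at week 4 and 0.74 ± 0.12 at week 12 (adjusted p = 1.66e-05). JAK2, the kinase bound to GHR, rose by 0.59 ± 0.10 at week 12 (adjusted p = 5.25e-05). The phosphatase PTPN11 rose by 0.29 ± 0.07, although another of its probe sets fell by 0.40, and STAT5A, a transducer of the receptor, fell by 0.21 ± 0.06.

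Among 12 measured IGF receptors and remaining binding proteins, 1 rose and 4 fell at week 4 and again at week 12, with 4 calls each time under the covariate. IGF1R, the receptor for IGF1, which hepatocytes express little, fell by 1.05 ± 0.09 at week 4 and by 1.02 ± 0.09 at week 12 (adjusted p = 5.1e-10). A second probe set of IGF1R differed by -1.07 at week 12 and another by -0.068. HTRA1, a protease that cuts binding proteins, fell by 0.63 ± 0.08 at week 4 and by 0.65 ± 0.08 at week 12. IGFBP5 fell by 1.13 ± 0.12 at week 12 (adjusted p = 1.33e-08), although 3 other probe sets stood at -0.37, -0.16 and 0.017, and IGFBP6, which prefers IGF2, fell by 0.92 ± 0.10. These genes moved the same way as the endothelial and stellate markers given above, whose part was not tested.

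Of 15 measured insulin signalling genes, 2 rose and 5 fell at week 4, and 1 rose and 5 fell at week 12, with 4 and 2 calls under the covariate, at week 12 those of SHC1 and IRS1. SHC1, an adaptor, fell by 0.55 ± 0.05 at week 4 and 0.37 ± 0.05 at week 12 (adjusted p = 2.6e-06), while its other probe set stood at -0.0075 at week 12. FOXO1, the transcription factor that insulin keeps out of the nucleus, fell by 0.69 ± 0.11 at week 4 and 0.44 ± 0.11 at week 12, when its second probe set fell by 0.37. IRS1, a docking protein of the receptors for insulin and IGF1, fell by 0.43 ± 0.07 at week 12, with its other probe set at 0.043. The kinase PDPK1 rose by 0.40 ± 0.10 at week 12, with other probe sets at -0.18, -0.04 and 0.086.

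Among 13 measured genes of fasting or insulin repression, 0 rose and 5 fell at week 4, and 2 rose and 4 fell at week 12, with 1 call each under the covariate, that of SESN1. These counts leave out dimmer probe sets, of which some were called higher and none lower. One of TAT differed by 0.70 at week 4 (adjusted p = 0.000557) and 0.80 at week 12 (adjusted p = 0.000165). One of PDK4 differed by 0.68 (adjusted p = 0.00647) and 0.61 (adjusted p = 0.018). A further one of TAT was called at week 12 only (0.39, adjusted p = 0.00222). At week 4 the stress-induced sestrins SESN3 and SESN1 fell by 0.32 ± 0.10 and 0.26 ± 0.07. FGF21, a fasting hormone of liver, fell by 0.43 ± 0.13 at week 12 (adjusted p = 0.0163), and KLB, its co-receptor, by 0.33 ± 0.08 (adjusted p = 0.00288). KLF15, a fasting-induced factor, rose by 0.29 ± 0.08 at week 12. G6PC1, the last enzyme of glucose release, rose by 0.71 ± 0.21, against 0.18 on its other probe set and 0.05 with the covariate.

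Of 15 measured genes of the activin and inhibin list, 3 rose and 5 fell at week 4, and 5 rose and 5 fell at week 12, with 3 and 2 calls under the covariate, at week 12 those of ACVR1B and BAMBI. BAMBI, a decoy receptor, fell by 0.50 ± 0.10 at week 4 (adjusted p = 0.000163). INHBC, a subunit made mainly by liver, differed by 0.34 ± 0.06 at week 4 on the brighter probe set and by -0.42 on the other, and by 0.30 ± 0.06 and -0.20 at week 12. The receptor ACVR1B rose by 0.57 ± 0.10 at week 12 (adjusted p = 3.89e-05) and ACVR1 by 0.37 ± 0.08. SMAD4, the shared signal transducer, differed at week 12 by -0.38 ± 0.07 on the brighter probe set and by 0.24 on another.

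The genes most like IGF1 209541_at over the 36 arrays, among 13633 genes with the brightest probe set of each, were ENTPD5 (r = 0.93), GATM (r = 0.93) and CRYZ (r = 0.91). Those most like IGFBP2 were RC3H2, DUSP16 and RBM18, at r of 0.64, 0.64 and 0.60. Those most like the dim IGFBP1 probe set were APLP2, SOAT1 and GOT1, at r of 0.80, 0.72 and 0.71. The arrays have animals, times and the 3′ minus 5′ shift in common, so these values are a description.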

How the data were processed

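The authors deposited log2 values of 54675 probe sets, credited to RMA (background correction, normalization between arrays and summary of probes) in the submitters' processing notes, with no version given in the sources used here. Total RNA was extracted with Trizol and labelled with biotin, per the labels' protocols. The 6 groups of 6 arrays entered a single limma fit (version 3.58.1, in R 4.3.3), with the animal as a random block (estimated correlation 0.136). The pairing comes from the animal identifiers in the labels. Tests were two-sided and adjusted by Benjamini and Hochberg over the 27304 probe sets whose mean reached the median of all (4.46); the 62 controls of the array were left out. Every adjusted p of a change comes from limma, and errors of differences are its standard errors. The median of an array lay between 4.42 and 4.51, and 0 columns were left unused. The number of arrays limits precision. Correlations used 100000 permutations.

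Symbols follow the platform annotation, which can be old: 41097 probe sets had 1 symbol, 1801 several and 11777 none. Probe sets were ranked by their signal, and marker signals were averaged over each list. The words high, bright and dim describe that signal, not the amount of one transcript against another. The members and lists were chosen with earlier results of these arrays known. Every probe set of a member is accounted for. From each list the text names the called genes of smallest p, up to 4 at week 12 and up to 2 at week 4, and for IGF1, IGFBP1 and IGFBP2 the 3 genes most like them. On simulated data with these arrays' size, for week 12 minus week -5 over 27304 probe sets, 90 of 100 changes of 0.5 and 100 of 100 changes of 1 were recovered, with 5 false calls. The simulated noise was independent between probe sets and held no 3′ minus 5′ shift with time. These figures therefore say nothing about calls under such a shift. Alternatives covered the filter, the block, 3 covariates, array weights, normalization, and each animal left out. No sequences are printed.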

Additional observations from a re-analysis of the deposited data

Results flagged for a closer look

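In 96 groups of 6 samples, 5 held a value far from the others by Dixon's criterion, where chance would give about 1 in 20. The count is near that share, and groups that hold the same animals or read the same gene are not independent. Of these, 4 were IGF1 values. On 209541_at, control animal 5 stood at 8.73 at week -5, beside 10.40 to 11.36 in the other control animals, and anti-miR-33 animal 4 stood at 11.80 at week 4, beside 11.19 to 11.41. On 209540_at, control animal 5 was low at week -5, at 9.72 beside 10.71 to 11.01, and again at week 4, at 10.24 beside 10.74 to 10.97. The 3′ minus 5′ difference of this animal was 3.02 at week -5, the largest of its arm. At week 4 it was 2.445, the largest of both arms, and its part in these low values was not tested. INSR 226212_s_at was at 4.53 in anti-miR-33 animal 3 at week -5, beside 4.78 to 4.87 in the other animals of that arm. The change of GHR from week -5 to week 4 was negative in every anti-miR-33 animal and positive in every control animal, with a median of 0.01 over all 12, and the test of the difference between arms did not pass (adjusted p = 0.999).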

How the results depend on the processing

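Of 144 values (16 probe sets in 9 comparisons), 20 were called, and 25 alternatives gave 3471 values, of which 63 lost a call, 9 gained one, 4 turned a called sign and 272 turned an uncalled one. The call count at week 12 against week -5 was 7 and came to 2 with the covariate from both genes, 2 with GAPDH alone and 2 with ACTB alone. At week 4 against week -5 it was 9 and came to 2, 5 and 2. The signs that turned were those of IGF1 at week 4 against week -5: 209542_x_at came to -0.048 with both genes and -0.22 with ACTB alone, and 211577_s_at to -0.014 and -0.19, for a reason not tested. Without the replicate block the pooled counts at week 12 against week -5, week 4 against week -5 and week 12 against week 4 were 6, 6 and 4, and with a fixed block for the animal 7, 10 and 5. With no filter on low values they were 6, 7 and 4. Leaving out 1 animal at a time gave 6 to 7, 6 to 9 and 3 to 4 calls. Counts between arms and for differences in change stayed at 0 under every alternative that could be fitted. Quantile normalization called GHR at week 12 against week 4 (-0.16, adjusted p = 0.0364) and IGF1 209540_at at week 4 against week -5 (0.28, adjusted p = 0.0147), which a fixed block also called (adjusted p = 0.0416). Changes within 1 arm are not among the 144 values, and for those named above the effect of the covariate stands beside them. A fixed block for the animal cannot give the differences between arms at one time. The 6 animals in an arm limit precision between arms, as the intervals for IGFBP2 and IGFALS show.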

Other observations

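SOCS2, a feedback inhibitor that growth hormone induces, was read differently by its 2 probe sets, as was seen after the values were known. The brighter one differed from week -5 by -0.41 ± 0.15 at week 4 (limma adjusted p = 0.0338) and by 0.21 ± 0.15 at week 12 (adjusted p = 0.345), and stood 0.62 ± 0.15 higher at week 12 than at week 4 (adjusted p = 0.00276). The other differed from week -5 by 0.99 at week 4 (adjusted p = 0.00258) and by 1.40 at week 12 (adjusted p = 8.48e-05). At week 4 the 2 probe sets passed in opposite directions, but with the 3′ minus 5′ covariate the brighter one no longer passed (-0.45, adjusted p = 0.0952).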
